A study of Homo sapiens with 9 samples.

Results

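A list of 55 nuclear genes that encode subunits of the mitochondrial respiratory chain and enzymes of the tricarboxylic acid (TCA) cycle was followed over 3 groups of HT1080, an established human fibrosarcoma cell line. Members were found by gene symbol: each probe set with values whose platform annotation names 1 gene of the list was taken, and a gene with several was represented by the probe set of highest mean. By this rule 51 of the 55 genes had values, on 78 probe sets, out of 9453 genes with values in all. NDUFA4 was matched through its current symbol COXFA4. NDUFS8 appeared only on probe sets that name several genes, and SDHB, UQCRFS1 and FH were not analysed here. All 51 passed the filter on low values, which kept 7010 genes other than MTAP. The groups were untreated MTAP-negative cells, untreated MTAP-positive cells, and MTAP-positive cells given the inhibitor MT-DADMe-ImmA at 10 µM for the last 48 hours before harvest, with 3 arrays each. MTAP, methylthioadenosine phosphorylase, splits the methylthioadenosine that polyamine synthesis leaves behind, which lets cells recover adenine and methionine. The submitters describe arrays of a group as biological replicates. The sources used here do not give how MTAP-positive cells were derived or whether they are 1 clone, and no MTAP-negative cells with inhibitor were analysed here, so an action of the compound apart from MTAP cannot be told apart from inhibition.

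The TCA cycle oxidises acetyl groups in the mitochondrial matrix and passes the electrons on as NADH and reduced flavin. Complex I takes electrons from NADH and complex II from succinate; complex III hands them to cytochrome c, and complex IV to oxygen. Complexes I, III and IV pump protons across the inner membrane, and complex V, the ATP synthase, lets them flow back to make ATP. All genes described here lie in the nucleus; the subunits encoded by mitochondrial DNA are not on the list. Many tumour lines make much of their ATP by glycolysis and still use this chain, both for ATP and to keep the cycle turning for biosynthesis.

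The label check held on each array: the log2 value of MTAP was 4.56 ± 0.41 in MTAP-negative cells (SD, n = 3), 11.58 ± 0.19 in MTAP-positive cells and 11.20 ± 0.10 with inhibitor. Of 17 mesenchymal markers, which a fibrosarcoma line should carry, 13 had values and DCN, LUM, NT5E and THY1 did not. In the comparison of MTAP-positive with MTAP-negative cells 6 of these 13 were higher and 0 lower; with inhibitor against untreated MTAP-positive cells 0 were higher and 1 lower, and against MTAP-negative cells 7 were higher and 1 lower. The shares called were 46.2%, 7.69% and 61.5%, beside 19.1%, 14.9% and 37.3% of all genes. Their summed level ran from 15.87 to 15.92 (log2) over the MTAP-negative arrays, from 15.94 to 16.09 over the MTAP-positive arrays and from 15.97 to 16.04 with inhibitor. None of 9 epithelial, 7 blood, 4 endothelial and 4 liver markers had values here. For ACTB, whose 5' control probe set falls behind its 3' one where RNA is broken, the gap (5' minus 3') was -2.50 ± 0.90 (log2, SD, n = 3) in MTAP-negative cells, -1.43 ± 0.45 in MTAP-positive cells and -1.64 ± 0.66 with inhibitor. Over the 51 genes, the median deviation from each gene's mean was -0.13 on array 2 of the MTAP-positive cells and lay between -0.04 and 0.09 on the other arrays. The part of the marker levels and of this array in the results was not tested.

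**Figure D1:**
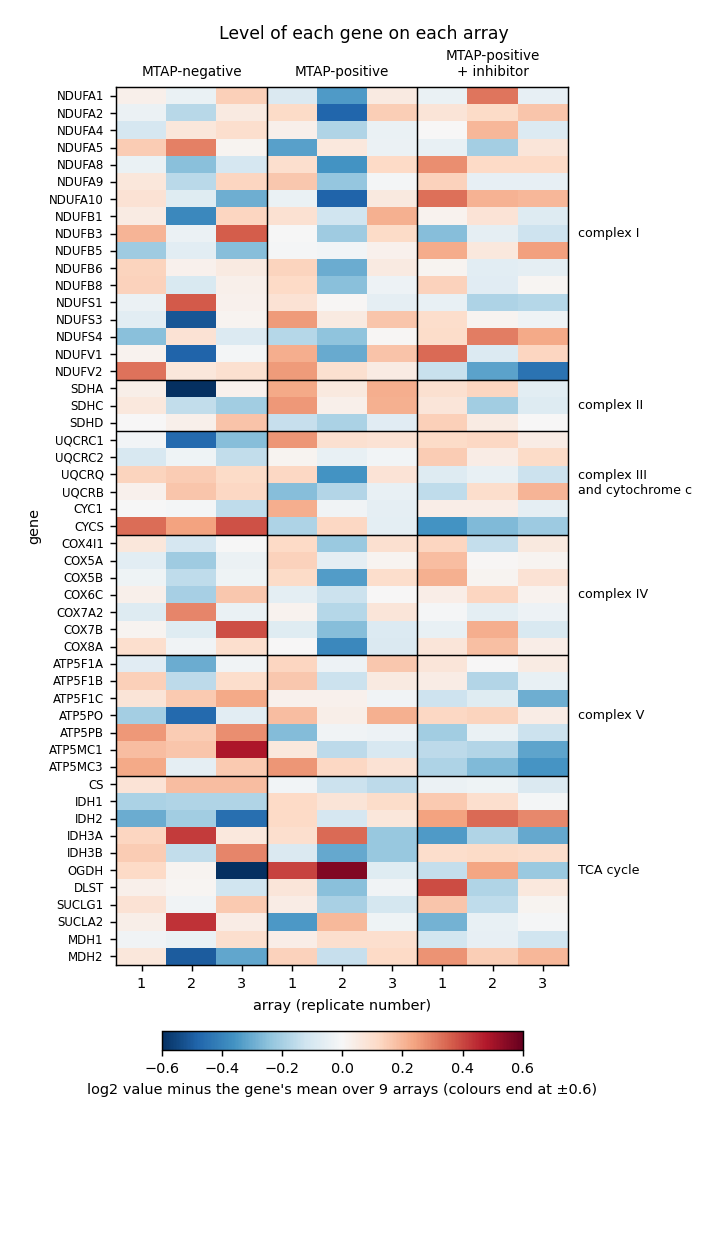
Log2 value of each of the 51 genes on each of the 9 arrays minus that gene's mean over the 9 arrays, with genes in rows by complex and arrays in columns by group; colours end at 0.6 in either direction. CYCS, ATP5PB and ATP5MC1 are red in MTAP-negative cells and blue with inhibitor, IDH2 runs the other way, and the rows of complex IV show no block of colour by group.

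Levels of these genes stayed close together over the 3 groups. None of the 51 differed by 2-fold or more in any comparison. Of the 7010 genes tested, 148 (2.11%) did so between MTAP-positive and MTAP-negative cells. With inhibitor, 65 (0.927%) did so against untreated MTAP-positive cells and 362 (5.16%) against MTAP-negative cells. At shares this small, 0 of 51 lies near the share of all genes. The 95% interval of the difference lay within 2-fold in either direction for 50, 51 and 51 of the 51 genes in these 3 comparisons, in that order, against 91.2%, 93.5% and 84.7% of all genes tested. It lay within 1.5-fold for 41, 45 and 35. These genes were bright: on the MTAP-negative arrays their median averaged 11.05 (log2), beside 8.31 for all probe sets with 1 symbol. Their median SE was 0.118, against 0.126 over all genes. The part of level and spread in these shares was not tested. Each pair of comparisons shares a group of arrays, so the 3 are not independent of each other.

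Between MTAP-positive and MTAP-negative cells 6 of 51 genes passed limma's test (adjusted p under 0.05), 4 higher and 2 lower. UQCRC1 of complex III, ATP5PO of the ATP synthase and the isocitrate dehydrogenases IDH1 and IDH2 rose, and cytochrome c (CYCS) and ATP5PB of the ATP synthase fell. IDH2 passed the filter on low values (log2 7.96) only through the MTAP-positive groups. That is 11.8% of the genes, against 19.1% of all genes tested; 11.7% of all genes were higher and 7.36% lower. The median log2 difference over the 51 genes was -0.04, with a range from -0.36 to 0.55, and the median over all genes was 0.01. The 3 arrays of one group did not overlap those of the other for 7 genes that were higher and 7 that were lower in MTAP-positive cells, which is 27.5% against 35.2% of all genes. These calls lay near the threshold: none of the 51 passed with limma fitted on these 6 arrays alone (9 did at an unadjusted p under 0.05) or with the ACTB difference as a covariate (6 at an unadjusted p under 0.05). Of all genes 10.7% and 6.7% passed under these settings. None of the 51 passed in limma either when MTAP-positive replicate 1 or 3, or any 1 inhibitor-treated array, was left out (9 to 12 at an unadjusted p under 0.05), and 2, 2 and 1 passed without MTAP-negative replicate 1, 2 and 3. Over the fits with 1 array left out 10.6% to 22.6% of all genes passed. With arrays centred on their medians the split was 0 higher and 4 lower, and after a second quantile normalisation it was 1 higher and 3 lower.

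With inhibitor against untreated MTAP-positive cells 2 of 51 genes passed, both lower: NDUFV2 of complex I and ATP5MC3 of the ATP synthase. This is 3.92%, against 14.9% of all genes tested, of which 6.36% were higher and 8.5% lower. The median log2 difference was 0.02, with a range from -0.43 to 0.40, and the median over all genes was -0.02. Arrays did not overlap for 10 genes that were higher and 6 that were lower with inhibitor, or 31.4% against 36.4% of all genes. With the replicate number as a block, 4 genes passed, beside 22.7% of all genes. IDH3A of the TCA cycle, at -0.34 ± 0.10 (SE, adjusted p = 0.0413), and NDUFS4 of complex I, at 0.35 ± 0.10 (adjusted p = 0.0417), joined NDUFV2 (adjusted p = 0.0078) and ATP5MC3 (adjusted p = 0.012). The second probe set of IDH3A gave only -0.04 ± 0.14 here, without the block (adjusted p = 0.897 over all probe sets). Without MTAP-positive replicate 1, inhibitor-treated replicate 2 or inhibitor-treated replicate 3, limma called 0 of the 51, with 8, 4 and 4 at an unadjusted p under 0.05, and without MTAP-positive replicate 2 it called 1. In these fits, in that order, 9.51%, 8.6%, 5.31% and 12.5% of all genes passed. With the ACTB covariate ATP5MC3 alone passed (adjusted p = 0.0429), and NDUFV2 did not (adjusted p = 0.0569).

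Inhibitor-treated cells differed from MTAP-negative cells at 13 of 51 genes, 6 higher and 7 lower. The genes that rose were NDUFB5, UQCRC1, ATP5PO, IDH1, IDH2 and MDH2, and those that fell were NDUFV2, CYCS, ATP5F1C, ATP5PB, ATP5MC1, ATP5MC3 and IDH3A. The share was 25.5%, against 37.3% of all genes tested, of which 19.3% were higher and 18.0% lower. The median log2 difference over the 51 genes was 0.03, with a range from -0.60 to 0.61. Arrays did not overlap for 14 higher and 14 lower genes, 54.9% against 54.6% of all genes. With the ACTB covariate 7 genes passed, and 6, 5, 8 and 4 did so without MTAP-negative replicate 3 and without inhibitor-treated replicate 1, 2 and 3, respectively. Beside these, 28.4% of all genes passed with the covariate, and 30.4%, 28.9%, 28.9% and 26.3% in the other fits. Centring the arrays gave 3 higher and 8 lower genes. CYCS and ATP5MC1 passed under every alternative that was run for them. IDH2 did so in the 19 run for it, but lay below the filter's threshold (log2 7.96) on the MTAP-negative arrays. It was thus tested only through its values in the MTAP-positive groups. The stricter filter and the rule for probe sets of 1 transcript left it out.

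**Figure D2:**
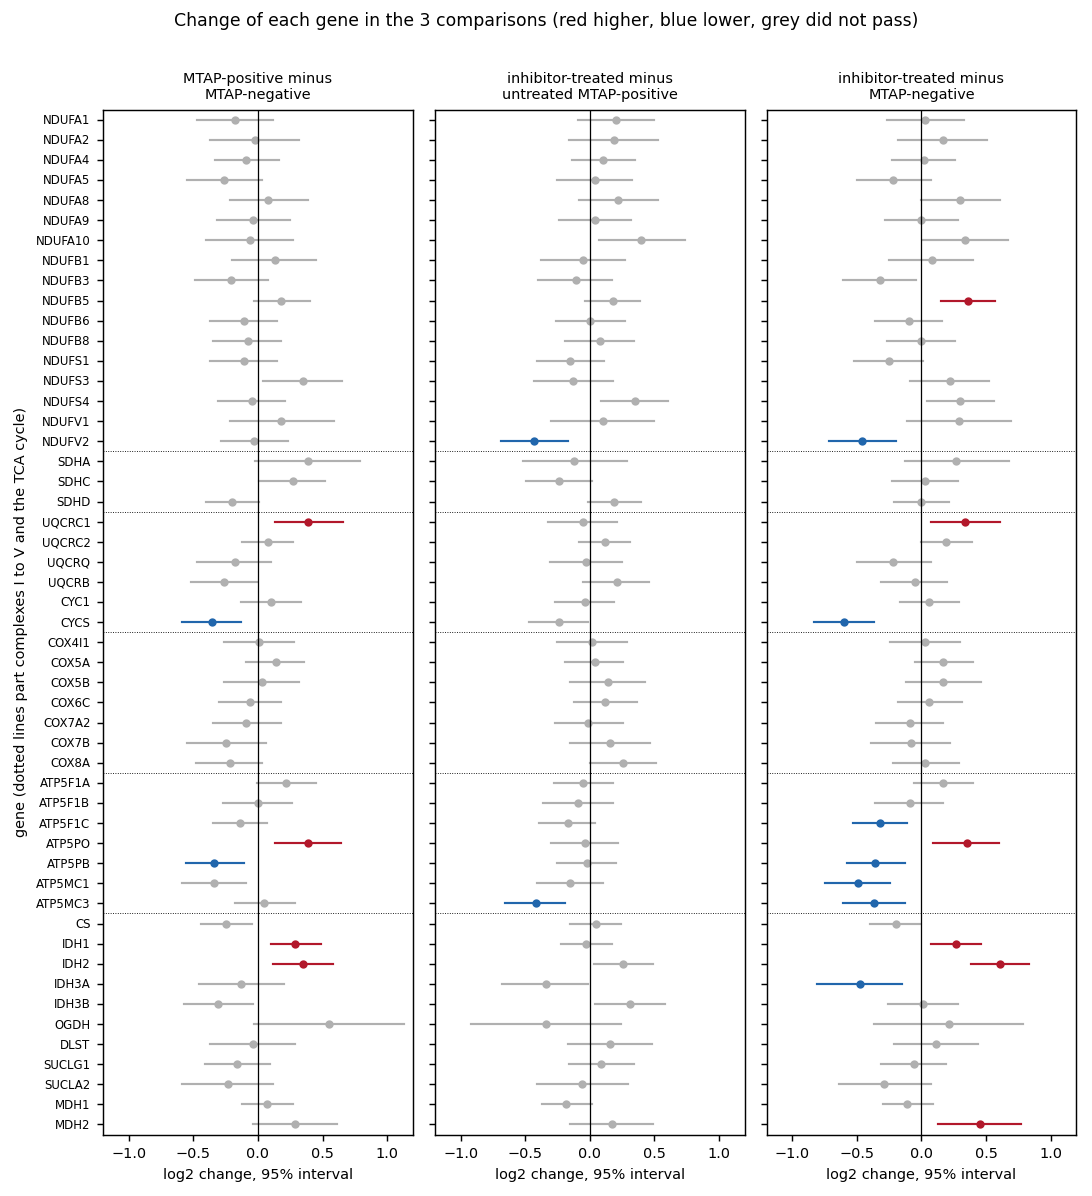
Log2 change of each of the 51 genes in the 3 comparisons (x axis) with its 95% interval from limma (line), genes in rows by complex; red passed the test as higher, blue as lower, and grey did not pass. Most intervals include 0 in all 3 panels, and the right-hand panel, inhibitor-treated against MTAP-negative cells, holds 13 coloured genes against 6 and 2 in the others.

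Complex I was represented by 17 of 18 listed genes. NDUFV2 encodes an iron-sulphur subunit of the module that receives electrons from NADH (probe set 202941_at). Its log2 values were 10.41, 10.15 and 10.18 in MTAP-negative cells, 10.34, 10.18 and 10.13 in MTAP-positive cells, and 9.95, 9.76 and 9.64 with inhibitor. All 3 inhibitor-treated arrays lay below the other 6, which overlapped each other. The difference was -0.43 ± 0.12 (SE; 95% interval -0.69 to -0.17; adjusted p = 0.0352) against untreated MTAP-positive cells, 1.35-fold lower. Against MTAP-negative cells NDUFV2 was lower by the slightly larger -0.46 ± 0.12 (adjusted p = 0.0121), and between the untreated groups it differed by -0.03 ± 0.12 (adjusted p = 0.893). The call against untreated MTAP-positive cells was lost with the ACTB covariate and with those 2 groups fitted alone.

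NDUFB5, an accessory subunit of the membrane arm (203621_at), moved the other way. It read 10.84, 10.99 and 10.80 in MTAP-negative cells, 11.05, 11.04 and 11.08 in MTAP-positive cells, and 11.28, 11.12 and 11.30 with inhibitor. No 2 groups overlapped, and the order was MTAP-negative, MTAP-positive, then inhibitor-treated. Each step was 0.18 ± 0.10 and did not pass (adjusted p = 0.202 for the first step, 0.247 for the second), while the whole difference of 0.36 ± 0.10 between inhibitor-treated and MTAP-negative cells did (adjusted p = 0.0145).

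No other complex I gene passed in the fit without the replicate block. With it NDUFS4, at 0.35 with inhibitor against untreated MTAP-positive cells, did (adjusted p = 0.0417), beside 22.7% of all genes. With inhibitor against MTAP-negative cells the block added NDUFA8 at 0.30 (adjusted p = 0.0415), NDUFB3 at -0.32 (adjusted p = 0.0416), NDUFS4 at 0.30 (adjusted p = 0.0437) and NDUFV1 at 0.29 (adjusted p = 0.0285). There 45.9% of all genes passed. With only these 2 groups fitted, NDUFA8 (adjusted p = 0.0391) and NDUFA10, at 0.34 (adjusted p = 0.0414), passed, beside 41.9% of all genes. With arrays centred NDUFB3 passed, at -0.38 (adjusted p = 0.0444), beside 38.6%. Against untreated MTAP-positive cells NDUFA10 was 0.40 ± 0.15 higher with inhibitor in the main fit and did not pass (adjusted p = 0.0997). For MTAP-positive over MTAP-negative cells limma called 0 of the 17, 1 had an unadjusted p under 0.05, the median difference was -0.05, and values ran from -0.26 to 0.35. Arrays of these groups did not overlap for 2 of the 17, NDUFB5 and NDUFS3. NDUFA4, which modern nomenclature counts with complex IV, differed by -0.09 ± 0.11 (adjusted p = 0.619) there and by 0.10 ± 0.11 with inhibitor (adjusted p = 0.573). NDUFA1, a small subunit of the membrane arm, gave -0.18 ± 0.13 (adjusted p = 0.387) and 0.20 ± 0.13 (adjusted p = 0.337), and NDUFB1, another accessory subunit, 0.13 ± 0.15 (adjusted p = 0.57) and -0.05 ± 0.15 (adjusted p = 0.845). Of the 17 estimates between the MTAP-positive groups 12 were above 0 and 5 below, with a median of 0.08.

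Complex II, succinate dehydrogenase, links the TCA cycle to the chain. For 3 of its 4 genes values were used, and limma called 0 of 3 in each comparison, with 1, 0 and 0 at an unadjusted p under 0.05. SDHA, the flavoprotein that oxidises succinate, read 10.45, 9.69 and 10.44 in MTAP-negative cells, 10.64, 10.47 and 10.63 in MTAP-positive cells, and 10.51, 10.54 and 10.35 with inhibitor. One MTAP-negative array, replicate 2, lay well below the rest, and the difference of 0.39 ± 0.18 between MTAP-positive and MTAP-negative cells did not pass (adjusted p = 0.159). The membrane anchors SDHC and SDHD gave 0.27 ± 0.12 (adjusted p = 0.132) and -0.20 ± 0.09 (adjusted p = 0.168) there, on opposite sides of 0. Between the MTAP-positive groups the estimates were -0.12 ± 0.18 for SDHA (adjusted p = 0.717), -0.24 ± 0.12 for SDHC (adjusted p = 0.196) and 0.19 ± 0.09 for SDHD (adjusted p = 0.193).

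Cytochrome c, encoded by CYCS (208905_at), carries electrons from complex III to complex IV and, once released into the cytosol, starts the caspase cascade. Its log2 values were 12.76, 12.67 and 12.81 in MTAP-negative cells, 12.24, 12.55 and 12.37 in MTAP-positive cells, and 12.07, 12.16 and 12.21 with inhibitor. No 2 groups overlapped, and levels were highest in MTAP-negative and lowest in inhibitor-treated cells. CYCS fell by 0.36 ± 0.10 on the log2 scale in MTAP-positive against MTAP-negative cells (95% interval -0.59 to -0.13; adjusted p = 0.0373), 1.28-fold lower. The further difference with inhibitor, -0.24 ± 0.10, did not pass (adjusted p = 0.149). Against MTAP-negative cells the inhibitor-treated cells were 1.52-fold lower, at -0.60 ± 0.10 (95% interval -0.83 to -0.37; adjusted p = 0.00157). The adjusted p of this last difference lay between 3.06e-04 and 0.00921 over 21 alternatives.

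Among complex III genes UQCRC1, a core subunit (201903_at), read 11.25, 10.80 and 11.01 in MTAP-negative cells, 11.53, 11.36 and 11.35 in MTAP-positive cells, and 11.38, 11.39 and 11.31 with inhibitor. The MTAP-negative arrays were all lower than the other 6, whose groups overlapped. UQCRC1 rose by 0.39 ± 0.12 in MTAP-positive cells (95% interval 0.13 to 0.66; adjusted p = 0.0451), and it was 0.34 ± 0.12 higher with inhibitor than in MTAP-negative cells (adjusted p = 0.0477). Between inhibitor-treated and untreated MTAP-positive cells it differed by -0.05 ± 0.12 (adjusted p = 0.805). Both calls of UQCRC1 were lost after centring the arrays, with the ACTB covariate and with 2 groups fitted alone. Of the other complex III genes, UQCRQ, UQCRB and UQCRC2 gave -0.18 ± 0.13 (adjusted p = 0.334), -0.26 ± 0.12 (adjusted p = 0.135) and 0.08 ± 0.09 (adjusted p = 0.565) between MTAP-positive and MTAP-negative cells; the first pair are small subunits and the last a core subunit. Between the MTAP-positive groups limma called 0 of the 6 genes of this group, and 1 had an unadjusted p under 0.05.

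Promoter sequences of CYCS, ATP5PB, ATP5PO and UQCRC1 are shown because these genes of the electron carrier, the ATP synthase and complex III moved in opposite directions between MTAP-positive and MTAP-negative cells: CYCS and ATP5PB fell, and ATP5PO and UQCRC1 rose. They come from RefSeq on GRCh38.p14 and run from 250 bases before the annotated start to 30 bases after it, 5′ to 3′ on the strand of the gene. Capitals mark a whole NRF1 motif GCATGCGC or YY1 motif AAGATGGC on either strand that lies inside the stretch. The windows are chr7:25125231-25125510 on the minus strand (CYCS), chr1:111449214-111449493 on the plus strand (ATP5PB), chr21:33915775-33916054 on the minus strand (ATP5PO) and chr3:48609617-48609896 on the minus strand (UQCRC1).
CYCS: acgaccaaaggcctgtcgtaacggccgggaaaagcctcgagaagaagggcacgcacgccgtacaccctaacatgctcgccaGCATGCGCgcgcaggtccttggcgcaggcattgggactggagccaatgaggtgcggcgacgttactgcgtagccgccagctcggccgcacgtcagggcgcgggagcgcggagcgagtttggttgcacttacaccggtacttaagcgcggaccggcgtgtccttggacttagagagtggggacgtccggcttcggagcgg
ATP5PB: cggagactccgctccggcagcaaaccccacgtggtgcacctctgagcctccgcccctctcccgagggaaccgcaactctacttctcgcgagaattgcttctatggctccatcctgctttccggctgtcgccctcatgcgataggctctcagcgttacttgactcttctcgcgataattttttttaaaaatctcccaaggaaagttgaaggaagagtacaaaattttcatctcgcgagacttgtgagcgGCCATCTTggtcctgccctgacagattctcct
ATP5PO: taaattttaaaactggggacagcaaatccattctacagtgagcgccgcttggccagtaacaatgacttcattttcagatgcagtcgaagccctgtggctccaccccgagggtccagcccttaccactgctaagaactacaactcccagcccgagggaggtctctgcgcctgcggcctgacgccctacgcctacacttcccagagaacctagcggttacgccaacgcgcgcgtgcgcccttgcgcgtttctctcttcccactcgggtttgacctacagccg
UQCRC1: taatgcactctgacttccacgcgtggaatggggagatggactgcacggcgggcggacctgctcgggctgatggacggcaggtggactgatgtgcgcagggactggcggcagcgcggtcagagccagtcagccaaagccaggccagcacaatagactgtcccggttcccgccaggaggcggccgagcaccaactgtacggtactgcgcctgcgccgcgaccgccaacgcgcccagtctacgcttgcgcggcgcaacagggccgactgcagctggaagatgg

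The NRF1 letters stand in the CYCS promoter at position -169 from the start, and the YY1 letters in that of ATP5PB at position -2 on the opposite strand. In UQCRC1 the YY1 letters begin at position 24 and their last letter falls past the end of the stretch shown, and in ATP5PO they begin at position 39, beyond it, so no capitals appear in either. Thus the YY1 letters occur near the start of a gene that fell and of a pair that rose. Of the 55 listed genes 47 had a promoter in the table, searched from 250 bases before to 50 after the start on both strands; NDUFB5, SDHC, UQCRB, CYC1, COX6C, ATP5F1B, ATP5MC3 and OGDH had none. NRF1 letters were in 6 of the 47 (12.8%), against 3.27% of all 27305 promoters of that length, and YY1 letters in 6 (12.8%) against 3.03%. The ETS motif CCGGAAG, to which GABP binds, was in 12 (25.5%) against 10.7%, the SP1 motif GGGCGG in 26 (55.3%) against 44.6%, and the CRE TGACGTCA in 3 (6.38%) against 1.98%. The CCAAT box was in 14 (29.8%) against 35.7%, and the E box CACGTG in 2 (4.26%) against 7.43%. Motifs were counted separately and may overlap, and a match of letters is not evidence of binding.

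Complex IV, cytochrome c oxidase, gave no call. Limma called 0 of its 7 genes in each comparison, with 0, 1 and 0 at an unadjusted p under 0.05. The interval of each gene lay within 1.5-fold in either direction in all 3 comparisons. Median log2 differences were -0.06 for MTAP-positive against MTAP-negative cells, 0.12 with inhibitor against untreated MTAP-positive cells and 0.03 with inhibitor against MTAP-negative cells. COX4I1, the regulatory subunit of the enzyme (202698_x_at), read 12.89, 12.72 and 12.82 in MTAP-negative cells, 12.94, 12.60 and 12.92 in MTAP-positive cells and 12.95, 12.68 and 12.88 with inhibitor. In each group replicate 2 was the lowest, and the 3 groups overlapped. COX7A2 and COX6C, small subunits, differed by -0.09 ± 0.12 (adjusted p = 0.641) and -0.06 ± 0.11 (adjusted p = 0.733) between MTAP-positive and MTAP-negative cells, and by -0.01 ± 0.12 (adjusted p = 0.985) and 0.12 ± 0.11 (adjusted p = 0.48) with inhibitor against untreated MTAP-positive cells.

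In complex V, 5 of 7 genes passed between inhibitor-treated and MTAP-negative cells, 1 higher and 4 lower, with a median log2 difference of -0.32. These are 14.3% and 57.1% of a list of only 7, beside 19.3% and 18.0% of all genes. The genes that fell encode subunit c (ATP5MC1 and ATP5MC3), subunit b and subunit gamma, and the gene that rose encodes the oligomycin sensitivity-conferring protein. Subunit c genes did not all fall. ATP5MC2, a further gene for subunit c outside this list of 7, rose by 0.57 ± 0.15 in the same comparison (adjusted p = 0.0125). ATP5PB, subunit b of the stalk that holds the catalytic head still (211755_s_at), read 12.85, 12.74 and 12.87 in MTAP-negative cells, 12.33, 12.57 and 12.56 in MTAP-positive cells and 12.38, 12.55 and 12.46 with inhibitor. MTAP-negative arrays lay above all others, and the other 2 groups overlapped. The difference was -0.34 ± 0.10 in MTAP-positive cells (95% interval -0.56 to -0.11; adjusted p = 0.0442), -0.36 ± 0.10 with inhibitor against MTAP-negative cells (adjusted p = 0.0195) and -0.02 ± 0.10 between the MTAP-positive groups (adjusted p = 0.908).

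ATP5PO, the oligomycin sensitivity-conferring protein at the top of the same stalk (200818_at), showed the opposite order. Its values were 11.72, 11.46 and 11.86 in MTAP-negative cells, 12.11, 11.96 and 12.14 in MTAP-positive cells, and 12.05, 12.06 and 11.97 with inhibitor. Again the MTAP-negative arrays stood apart, here below the rest. ATP5PO rose by 0.39 ± 0.12 in MTAP-positive cells (95% interval 0.13 to 0.64; adjusted p = 0.0418) and was 0.35 ± 0.12 higher with inhibitor than in MTAP-negative cells (adjusted p = 0.0377). Its second probe set, 216954_x_at, gave 0.07 ± 0.11 and 0.12 ± 0.11 in these comparisons and did not pass, so the 2 probe sets disagree. Both calls were lost when the probe sets were averaged and when arrays were centred.

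Subunit c forms the ring that turns as protons pass, and several genes encode the same mature protein. With inhibitor against MTAP-negative cells ATP5MC1 and ATP5MC3 fell, and ATP5MC2, from a further list described below, rose. The summed level of these genes was not tested. ATP5MC1 (208972_s_at) read 10.05, 10.03 and 10.35 in MTAP-negative cells, 9.93, 9.71 and 9.77 in MTAP-positive cells and 9.71, 9.69 and 9.55 with inhibitor. Values were highest in MTAP-negative cells, and the inhibitor-treated arrays ended just below the untreated MTAP-positive ones. The difference of -0.34 ± 0.11 between MTAP-positive and MTAP-negative cells missed the threshold (adjusted p = 0.0634), and that of -0.15 ± 0.11 with inhibitor against untreated MTAP-positive cells did too (adjusted p = 0.399). ATP5MC1 fell by 0.49 ± 0.11 with inhibitor against MTAP-negative cells (95% interval -0.75 to -0.24; adjusted p = 0.00735), 1.41-fold lower, with an adjusted p of at most 0.0453 over 20 alternatives.

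ATP5MC3 followed another order. Its main probe set, 207507_s_at, read 12.38, 12.10 and 12.31 in MTAP-negative cells, 12.42, 12.28 and 12.24 in MTAP-positive cells, and 11.97, 11.89 and 11.80 with inhibitor. The untreated groups overlapped, and every inhibitor-treated array lay below them. ATP5MC3 fell by 0.42 ± 0.11 with inhibitor against untreated MTAP-positive cells (95% interval -0.66 to -0.19; adjusted p = 0.0253), 1.34-fold lower, and by 0.37 ± 0.11 against MTAP-negative cells (adjusted p = 0.0204). Between the untreated groups it differed by 0.05 ± 0.11 (adjusted p = 0.76). A second probe set of the gene, 207508_at, gave the same -0.42 ± 0.09 with inhibitor when every probe set was tested (adjusted p = 0.0234), and the third and dimmest, 228168_at, gave -0.31 ± 0.11 and did not pass (adjusted p = 0.0995).

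ATP5F1C, the gamma subunit whose rotation drives ATP synthesis (208870_x_at), read 12.63, 12.71 and 12.78 in MTAP-negative cells, 12.58, 12.58 and 12.53 in MTAP-positive cells and 12.43, 12.48 and 12.26 with inhibitor. No 2 groups overlapped. The gene fell by 0.32 ± 0.09 with inhibitor against MTAP-negative cells (adjusted p = 0.0231), while -0.14 ± 0.09 between the untreated groups (adjusted p = 0.308) and -0.17 ± 0.09 between the MTAP-positive groups (adjusted p = 0.244) did not pass. ATP5F1A and ATP5F1B, the alpha and beta subunits of the catalytic head, differed by 0.22 ± 0.10 (adjusted p = 0.167) and -0.00 ± 0.12 (adjusted p = 0.981) between MTAP-positive and MTAP-negative cells. Against MTAP-negative cells the inhibitor-treated cells gave 0.17 ± 0.10 (adjusted p = 0.231) and -0.09 ± 0.12 (adjusted p = 0.569). With the ACTB covariate 1 complex V gene was higher and 1 lower in this last comparison, and the median difference was -0.32 as before. Without MTAP-negative replicate 3 there was 1 in each direction, and without inhibitor-treated replicate 3 there were 0 higher and 1 lower.

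**Figure D3:**
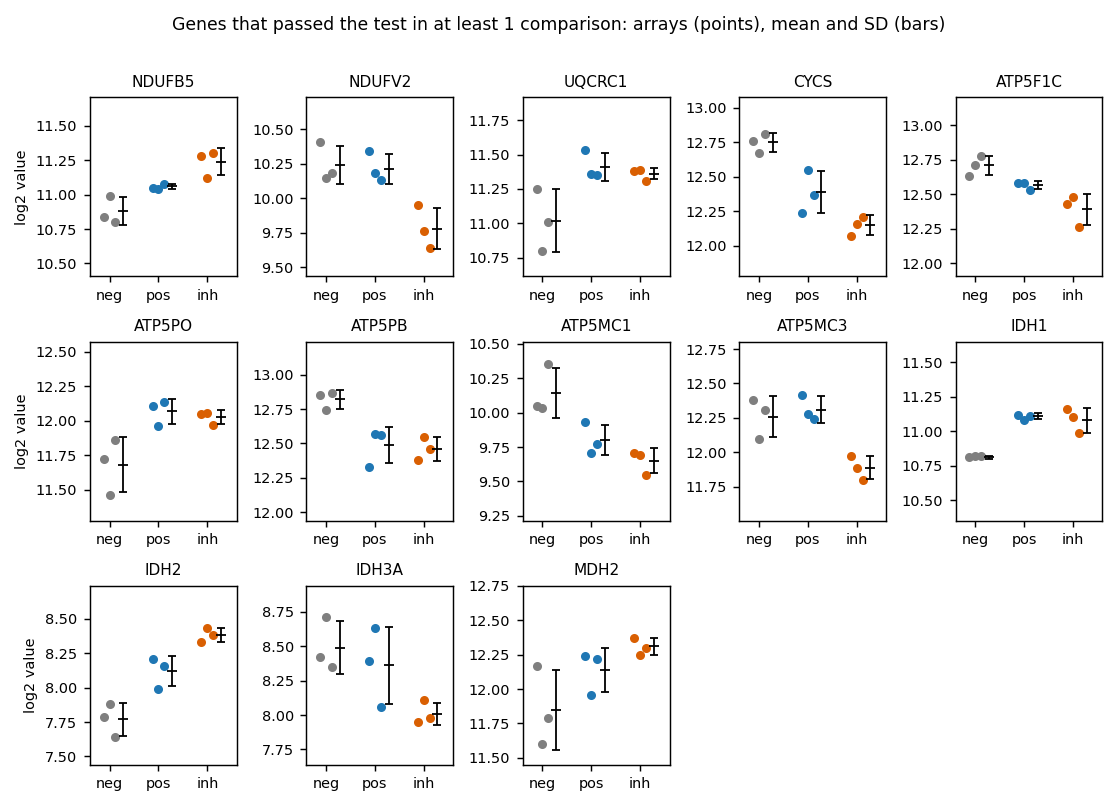
Log2 values of the 13 genes that passed the test in at least 1 comparison, with a point for each array, and the mean and SD of each group of 3 (bars), in MTAP-negative (neg), MTAP-positive (pos) and inhibitor-treated MTAP-positive (inh) cells; each y axis is cut to the same length of 1.3 around the gene's mean. NDUFV2 and ATP5MC3 are low with inhibitor alone, ATP5PB, ATP5PO, UQCRC1 and IDH1 set MTAP-negative cells apart, and CYCS and IDH2 step from group to group.

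Isocitrate dehydrogenases of the TCA cycle list moved in different directions. IDH2, the mitochondrial enzyme that makes NADPH (210046_s_at), read 7.79, 7.88 and 7.64 in MTAP-negative cells, 8.21, 7.99 and 8.16 in MTAP-positive cells, and 8.33, 8.43 and 8.38 with inhibitor. No 2 groups overlapped, and inhibitor-treated cells were highest. Each MTAP-negative value lay below the filter's threshold of log2 7.96, so IDH2 was tested only through its values in the MTAP-positive groups. IDH2 rose by 0.35 ± 0.10 in MTAP-positive against MTAP-negative cells (95% interval 0.12 to 0.58; adjusted p = 0.0382). The further 0.26 ± 0.10 with inhibitor did not pass (adjusted p = 0.117), and the difference of 0.61 ± 0.10 between inhibitor-treated and MTAP-negative cells, 1.53-fold, did (95% interval 0.38 to 0.83; adjusted p = 0.0013). Over 19 alternatives the adjusted p of this difference lay between 2.35e-04 and 0.00968.

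IDH1, the enzyme of cytosol and peroxisomes that runs the same reaction (201193_at), read 10.81, 10.82 and 10.82 in MTAP-negative cells, 11.12, 11.08 and 11.11 in MTAP-positive cells and 11.16, 11.10 and 10.99 with inhibitor. The MTAP-negative arrays were nearly identical and lay below all others. IDH1 rose by 0.29 ± 0.09 in MTAP-positive cells (95% interval 0.10 to 0.49; adjusted p = 0.0412) and by 0.27 ± 0.09 with inhibitor against MTAP-negative cells (adjusted p = 0.0341), while the MTAP-positive groups differed by -0.03 ± 0.09 (adjusted p = 0.877). Its second probe set, 1555037_a_at, gave 0.43 ± 0.09 between MTAP-positive and MTAP-negative cells (adjusted p = 0.0131 over all probe sets).

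IDH3A, the catalytic subunit of the NAD-dependent enzyme that runs in the cycle itself (202069_s_at), read 8.42, 8.71 and 8.35 in MTAP-negative cells, 8.39, 8.63 and 8.06 in MTAP-positive cells and 7.95, 8.11 and 7.98 with inhibitor. Between the untreated groups it differed by -0.13 ± 0.15 (adjusted p = 0.561). Inhibitor-treated arrays lay below the MTAP-negative ones and overlapped the untreated MTAP-positive ones at the lowest of these. IDH3A fell by 0.48 ± 0.15 with inhibitor against MTAP-negative cells (95% interval -0.81 to -0.15; adjusted p = 0.0286), 1.39-fold lower. Its second probe set, 202070_s_at, gave -0.47 ± 0.14 there (adjusted p = 0.0305 over all probe sets). That probe set gave -0.43 ± 0.14 between the untreated groups (adjusted p = 0.0659) and -0.04 ± 0.14 between the MTAP-positive groups (adjusted p = 0.897). The 2 probe sets thus differ on the step at which the estimate fell. MDH2, mitochondrial malate dehydrogenase (209036_s_at), read 12.17, 11.60 and 11.79 in MTAP-negative cells, 12.24, 11.96 and 12.22 in MTAP-positive cells and 12.37, 12.25 and 12.30 with inhibitor. It rose by 0.45 ± 0.14 with inhibitor against MTAP-negative cells (adjusted p = 0.0314), where the groups did not overlap; between the untreated groups it differed by 0.29 ± 0.14 (adjusted p = 0.19). This call was lost with the ACTB covariate and in 7 other alternatives of 21, among them averaged probe sets and probe sets of 1 transcript. The second probe set of MDH2, 213333_at, gave 0.15 ± 0.19 and did not pass (adjusted p = 0.591 over all probe sets).

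The other TCA cycle genes did not pass in the main fit. Citrate synthase (CS), which brings acetyl groups into the cycle, gave -0.25 ± 0.09 between MTAP-positive and MTAP-negative cells (adjusted p = 0.0749), with no overlap between the arrays, 0.05 ± 0.09 between the MTAP-positive groups (adjusted p = 0.766) and -0.20 ± 0.09 with inhibitor against MTAP-negative cells (adjusted p = 0.0976). With arrays centred, the first of these differences passed, at -0.32 ± 0.10 (adjusted p = 0.0379), beside 19.8% of all genes. MDH1, the cytosolic malate dehydrogenase, gave 0.07 ± 0.09 (adjusted p = 0.599), -0.18 ± 0.09 (adjusted p = 0.198) and -0.11 ± 0.09 (adjusted p = 0.362) in the same order of comparisons. OGDH, a subunit of 2-oxoglutarate dehydrogenase that is named here after its values were seen, had the widest interval of the 51 genes: its MTAP-negative arrays read 8.47, 8.37 and 7.45 and its MTAP-positive arrays 8.76, 8.91 and 8.28. The difference of 0.55 ± 0.26 did not pass (adjusted p = 0.166), and the call depended on the fit: with the replicate number as a block it did, at 0.55 ± 0.15 (adjusted p = 0.0268), and with the ACTB covariate the estimate was -0.05 ± 0.14 (adjusted p = 0.855). Its second probe set, 1554151_at, gave -0.29 ± 0.11, on the other side of 0 (adjusted p = 0.0978 over all probe sets). Between the MTAP-positive groups limma called 0 of the 11 TCA cycle genes, and 3 had an unadjusted p under 0.05.

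Probe sets differed within genes. Of the 16 genes with more than 1 probe set, 4, 8 and 6 had probe sets on both sides of 0 in MTAP-positive against MTAP-negative cells, inhibitor-treated against untreated MTAP-positive cells and inhibitor-treated against MTAP-negative cells. When all 15483 probe sets were tested, 5, 3 and 18 of the 78 probe sets of these genes passed, against 15.5%, 10.3% and 31.0% of all. For 26 of the 51 genes the probe set used carries a suffix (_s, _x or _a) for probes that can match more than 1 transcript, among them those of ATP5PB, ATP5F1C, ATP5MC1, ATP5MC3, IDH2, IDH3A and MDH2, so related transcripts may add to their signal.

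Genes around the chain were described from 6 further lists. Of 31 further subunits of complexes I to V that were tested, 2 were lower in MTAP-positive than in MTAP-negative cells and 0 higher: NDUFA7 of complex I, at -0.60 ± 0.16 (adjusted p = 0.0301), and UQCR10 of complex III, at -0.46 ± 0.12 (adjusted p = 0.0247). Neither passed with the ACTB covariate (adjusted p = 0.234 and 0.185). With inhibitor against untreated MTAP-positive cells 2 were higher and 1 lower, the complex I subunit NDUFB10 at -0.64 ± 0.13 (adjusted p = 0.0118). Against MTAP-negative cells 1 was higher, ATP5MC2, another gene for subunit c, at 0.57 ± 0.15 (adjusted p = 0.0125), and 1 lower. The medians of this list were -0.02, 0.03 and 0.03 in the 3 comparisons. Called shares were 6.45%, 9.68% and 6.45%, beside 19.1%, 14.9% and 37.3% of all genes.

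Assembly factors put the complexes together. Of 34 tested, 1 was higher and 2 lower in MTAP-positive than in MTAP-negative cells, 3 higher and 1 lower with inhibitor against untreated MTAP-positive cells, and 3 higher and 8 lower against MTAP-negative cells. The shares called were 8.82%, 11.8% and 32.4%, each below the 19.1%, 14.9% and 37.3% of all genes. NDUFAF4, a complex I assembly factor, was at 10.34 ± 0.14 (log2, SD, n = 3) in MTAP-negative cells, 9.68 ± 0.10 in MTAP-positive cells and 9.62 ± 0.14 with inhibitor. It fell by 0.66 ± 0.11 in MTAP-positive cells (adjusted p = 0.00384). TTC19, a factor for complex III, was at 10.78 ± 0.08, 10.99 ± 0.11 and 11.90 ± 0.13 in that order of groups, and rose by 0.91 ± 0.11 with inhibitor against untreated MTAP-positive cells (adjusted p = 0.0011). Both calls held in all 21 alternatives. With the ACTB covariate the count between MTAP-positive and MTAP-negative cells went from 1 higher and 2 lower to 0 and 1. The medians of the list were -0.10, -0.03 and -0.04.

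Other genes of the TCA cycle and of pyruvate entry made up a list with 19 tested members, 2 higher and 3 lower in MTAP-positive than in MTAP-negative cells, 3 higher and 0 lower with inhibitor against untreated MTAP-positive cells, and 8 higher and 2 lower against MTAP-negative cells. Called shares were 26.3%, 15.8% and 52.6%, beside 19.1%, 14.9% and 37.3% of all genes. The median in the last comparison was 0.17. PDP1, the phosphatase that switches pyruvate dehydrogenase on, was at 11.21 ± 0.12 in MTAP-negative cells, 11.94 ± 0.22 in MTAP-positive cells and 12.51 ± 0.09 with inhibitor. It rose by 0.73 ± 0.13 in MTAP-positive cells (adjusted p = 0.00361) and by a further 0.58 ± 0.13 with inhibitor (adjusted p = 0.0137). PDK1, a kinase that switches the same enzyme off, rose by 0.50 ± 0.10 in MTAP-positive cells (adjusted p = 0.00613), and MPC1, a subunit of the mitochondrial pyruvate carrier, fell by 0.58 ± 0.11 (adjusted p = 0.00746). With the ACTB covariate 1 was higher and 1 lower in that comparison: PDP1 (adjusted p = 0.0137) and MPC1 (adjusted p = 0.039) passed, and PDK1 did not (adjusted p = 0.078). SUCLG2, the GTP-specific subunit of succinyl-CoA ligase, rose by 0.78 ± 0.10 with inhibitor against untreated MTAP-positive cells (adjusted p = 0.00183), and ACO1, the cytosolic aconitase, by 0.46 ± 0.10 (adjusted p = 0.014).

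Regulators of mitochondrial gene expression held 12 tested genes, with 1 higher and 3 lower in MTAP-positive than in MTAP-negative cells, 1 in each direction with inhibitor against untreated MTAP-positive cells, and 2 higher and 5 lower against MTAP-negative cells. The shares called were 33.3%, 16.7% and 58.3%, beside 19.1%, 14.9% and 37.3% of all genes. TFAM, which packs mitochondrial DNA and starts its transcription, was at 10.51 ± 0.22 in MTAP-negative cells, 9.91 ± 0.12 in MTAP-positive cells and 9.66 ± 0.22 with inhibitor. It fell by 0.60 ± 0.14 in MTAP-positive cells (adjusted p = 0.0175) and by 0.85 ± 0.14 with inhibitor against MTAP-negative cells (adjusted p = 0.00136). TFB1M, which methylates mitochondrial ribosomal RNA, rose by 0.90 ± 0.13 with inhibitor against untreated MTAP-positive cells (adjusted p = 0.00248). GABPB1, a subunit of the ETS factor GABP, rose by 0.37 ± 0.10 in MTAP-positive cells (adjusted p = 0.0255) and fell by 0.67 ± 0.10 with inhibitor (adjusted p = 0.00261). In MTAP-positive against MTAP-negative cells neither TFAM (adjusted p = 0.0848) nor GABPB1 (adjusted p = 0.227) passed with the ACTB covariate.

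Mitochondrial ribosomal proteins, which serve the translation of subunits encoded in the organelle, formed the longest list, with 74 tested genes. In MTAP-positive against MTAP-negative cells 1 was higher and 7 were lower, or 1.35% and 9.46%, beside 11.7% and 7.36% of all genes. The median was -0.16, and 55 of the 74 estimates were below 0, beside 3355 of 7010 for all genes. With inhibitor against untreated MTAP-positive cells 2 were higher and 3 lower, or 6.76% called, beside 14.9% of all genes. Against MTAP-negative cells 3 were higher and 22 lower (4.05% and 29.7%, beside 19.3% and 18.0% of all genes), with a median of -0.18. MRPL1, of the large subunit, was at 9.79 ± 0.04 in MTAP-negative cells, 9.44 ± 0.40 in MTAP-positive cells and 8.44 ± 0.19 with inhibitor. It was lower with inhibitor than in untreated MTAP-positive cells (adjusted p = 0.00636) and fell by 1.35 ± 0.18 against MTAP-negative cells (adjusted p = 3.77e-04). MRPS15 of the small subunit fell by 0.42 ± 0.09 in MTAP-positive cells (adjusted p = 0.0138), and MRPS6 rose by 0.53 ± 0.14 (adjusted p = 0.029); with the ACTB covariate their adjusted p was 0.134 and 0.058.

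Of 20 tested carriers and import genes, 0 were higher and 1 lower in MTAP-positive than in MTAP-negative cells, 0 higher and 3 lower with inhibitor against untreated MTAP-positive cells, and 1 higher and 6 lower against MTAP-negative cells. The share called was 5.0% in the first comparison and 35.0% in the last, beside 19.1% and 37.3% of all genes, and 3 of 20 in the second, beside 14.9%. TIMM17A, of the inner membrane translocase, fell by 0.48 ± 0.11 in MTAP-positive cells (adjusted p = 0.0165, and 0.0782 with the ACTB covariate). The chaperonin HSPE1 fell by 0.49 ± 0.11 with inhibitor against untreated MTAP-positive cells (adjusted p = 0.0177), as did the aspartate-glutamate carriers SLC25A12, by 0.56 ± 0.14 (adjusted p = 0.0227), and SLC25A13, by 0.52 ± 0.15 (adjusted p = 0.0374, and 0.0566 with the ACTB covariate). SLC25A1, the citrate carrier, rose by 1.04 ± 0.26 with inhibitor against MTAP-negative cells (adjusted p = 0.0119, and 0.0582 with the ACTB covariate). With the ACTB covariate limma called 0 of the 31 further subunits, 0 of the 12 regulators, 0 of the 74 ribosomal genes and 0 of these 20 genes between MTAP-positive and MTAP-negative cells, with 2, 5, 13 and 2 at an unadjusted p under 0.05.

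**Figure D4:**
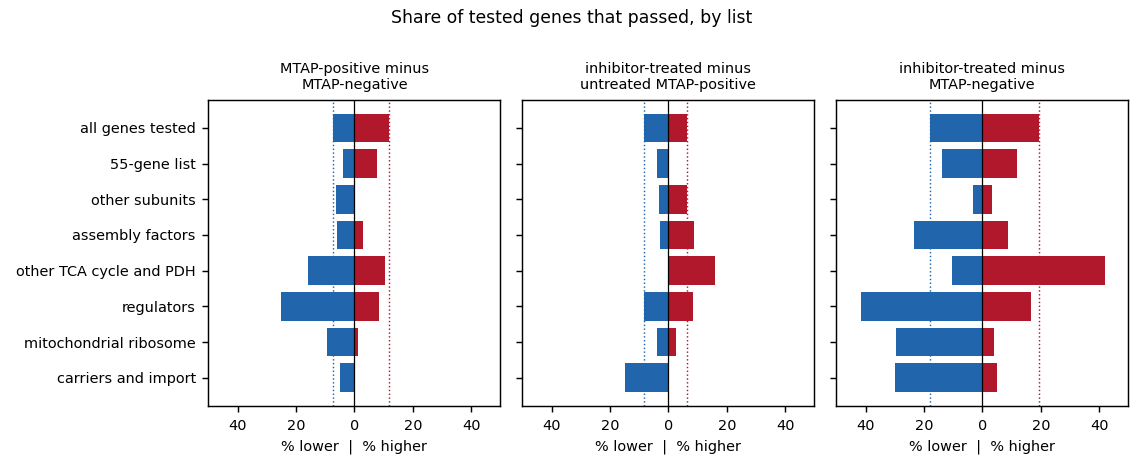
Share of tested genes that passed the test as higher (right, red) or lower (left, blue), in percent, for all genes tested, the 55-gene list and the 6 lists around it, in the 3 comparisons; dotted lines mark the shares of all genes tested. The 55-gene list lies inside the dotted lines in all 3 panels, and the mitochondrial ribosome reaches 29.7% lower in the right-hand panel.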

How the data were processed

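RNA from 3 arrays a group was hybridised to Affymetrix expression arrays. Per the submitters' processing notes, the authors computed these deposited log2 values with RMA; the sources used here name no version. The table lists 54675 probe sets, of which 17474 have values; each of these reaches log2 6.64 on at least 3 arrays, so dim ones had been left out. Names came from the platform annotation: 15491 probe sets carry 1 symbol, 841 several and 1142 none.

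One probe set a gene, that of highest mean, was kept if above the 40th percentile of the table (log2 7.96) on at least 3 arrays. Limma 3.58.1 in R 4.3.3 fitted the 3 groups to all 9 arrays; p-values were adjusted by Benjamini-Hochberg over 7010 genes, without MTAP, and 0.05 was the threshold. The script was tested on simulated data. The number of arrays limits precision: the median SE of a log2 difference was 0.126.

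Members and lists were chosen with earlier results of these data known. Genes named are every called member per complex and up to 3 others of highest mean, and per further list up to 4 called genes with the largest change; where a complex has over 4 called genes, the 4 with the largest change. ATP5F1C, the one beyond these 4 in complex V, OGDH, NDUFS3 and second probe sets fall outside this rule and were named after their values were seen. The same holds for NDUFA8, NDUFA10, NDUFB3, NDUFS4, NDUFV1 and IDH3A, where they are named for their values under alternative fits. Labels number the arrays 1 to 3 in each group. Deviations of same-numbered arrays from their group means correlated over genes. The values were 0.381, 0.247 and 0.152 between MTAP-negative and MTAP-positive cells, and 0.767, 0.597 and 0.353 between the MTAP-positive groups. Same-numbered arrays may thus be paired there, which no label states. The main fit does not use the numbers, so its calls, SEs and adjusted p-values are unpaired. It called 6, 2 and 13 genes in the 3 comparisons, and the replicate block called 7, 4 and 17. The alternatives numbered 21: filters, rules for probe sets, scaling, the fit, the ACTB covariate, the replicate block and each array left out.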

Additional observations from a re-analysis of the deposited data

How the results depend on the processing

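Between MTAP-positive and MTAP-negative cells the 6 called genes became 0 with only these groups fitted and 0 with the ACTB covariate. Of all genes 10.7% and 6.7% were called under these settings, down from 19.1%. With every probe set as a row of the test, 0 of the probe sets used for the genes passed. Over all 78 probe sets of these genes 5 passed, beside 15.5% of all probe sets. With 1 array left out 0 to 5 genes were called, beside 10.6% to 22.6% of all genes. With inhibitor against untreated MTAP-positive cells the 2 calls became 1, 1 and 1 under the same settings, 5 with array weights and 4 with the replicate block, and from 0 to 3 with 1 array left out. With inhibitor against MTAP-negative cells the 13 calls became 7 with the ACTB covariate, beside 28.4% of all genes, down from 37.3%. With 1 array left out 4 to 15 were called, beside 26.3% to 42.2% of all genes. The cause of these shifts was not tested. With the replicate block 7 genes were called between MTAP-positive and MTAP-negative cells, beside 27.3% of all genes. With inhibitor against MTAP-negative cells the block gave 17, beside 45.9% of all genes. There same-numbered arrays correlated at 0.315, 0.024 and 0.027, and the labels do not say whether they are paired. No named gene reversed sign while called. Centring moved the median of all genes from 0.01 to -0.06 between MTAP-positive and MTAP-negative cells, and that of the 51 genes from -0.04 to -0.12; between inhibitor-treated and MTAP-negative cells the latter went from 0.03 to -0.03. Over single genes, 960 of the values recomputed for the first comparison kept their side of the threshold, 74 lost a call and 13 gained one. In the second these were 1030, 10 and 7, and in the third 971, 59 and 17. IDH2 and IDH3A were not recomputed with the stricter filter, which left them out, or with probe sets of 1 transcript.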

Other observations

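Second probe sets of a few genes passed the test over all 15483 probe sets where the probe set used for the gene did not; they were picked after their values were seen. IDH3B, the regulatory partner of IDH3A, gave -0.63 ± 0.12 (SE) on the log2 scale in MTAP-positive against MTAP-negative cells on 201509_at (adjusted p = 0.00961) and 0.49 ± 0.12 with inhibitor against untreated MTAP-positive cells (adjusted p = 0.036). Its main probe set, 210014_x_at, gave -0.31 ± 0.13 and 0.31 ± 0.13 there and did not pass (adjusted p = 0.127 and 0.146). SDHC, a membrane anchor of complex II, gave 0.76 ± 0.20 on 216591_s_at (adjusted p = 0.0352) and 0.51 ± 0.15 on 238056_at (adjusted p = 0.046) in MTAP-positive against MTAP-negative cells, beside 0.27 ± 0.12 on the brightest of its 5 probe sets. UQCRB, a small subunit of complex III, gave -0.36 ± 0.09 on 209065_at (adjusted p = 0.0285), beside -0.26 ± 0.12 on 209066_x_at (adjusted p = 0.162).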
